A study of Mus musculus with 16 samples.

Results

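Voluntary running was compared with no running in fibres of the extensor digitorum longus, a fast hindlimb muscle, of male C57BL/6 mice aged 4 months. The young runners had used a wheel at will for 5 weeks, and the young controls had not. Each group held 4 libraries, so 8 of the 16 libraries of the series enter the comparison. Another 8 libraries, 4 runners and 4 controls aged 22 months with the same strain, sex and muscle, are used only to set the effect at that age beside it. RNA was taken from whole fibres after the mononucleated cells attached to them had been stripped away. All genes were examined that lay at least 1 above the lowest value of the deposited table in at least 4 of the 8 libraries, which left 10624 of 21752 gene symbols. Nothing in the labels ties each library to its own animal. The p-values therefore measure only the spread between libraries, which may be technical.

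Endurance exercise is known to raise the oxidative capacity of muscle: fibres gain enzymes of the citrate cycle and of fat oxidation, capillaries grow around them, and myosin shifts within the fast types. The matrix that ties fibres to one another, made largely by fibroblast-like fibro-adipogenic progenitors, is remodelled under load. Contraction also switches on short-lived transcripts (immediate early genes, stress genes, cytokine feedback genes), whose level depends on the time since the last bout and since the animal was killed. Neither the time of day nor the interval from running to tissue collection is given in the sources used here.

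Libraries held 44.8 ± 6.9 M assigned reads in runners and 52.4 ± 7.0 M in controls (SD, n = 4; M, 1e6). Fibre transcripts dominated: Acta1, skeletal muscle actin, took 3.3% to 5.33% of reads and Myh4, the heavy chain of the fastest myosin, 0.808% to 3.27%. Runner Y3ex and control Yc4 stood apart from the others of their group. They had the fewest genes with a read in their group (12669 and 13773, against up to 16532 in runners and 17500 in controls), and their long genes were low, as described with the short genes. Differences (runners minus controls) are in the units deposited, a variance-stabilised log2 scale on which differences of low genes are compressed. Levels are given as normalised reads, that is reads divided by the library's size factor. Where 4 values are listed for runners they are in the order Y1ex, Y2ex, Y3ex, Y4ex, and for controls Yc4, Yc5, Yc7, Yc8.

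Running raised 30 genes and lowered 51 at an adjusted p of at most 0.05 (limma, Benjamini-Hochberg over 10624 genes, 2-sided), that is 0.762% of the genes tested (0.282% higher and 0.48% lower). Before adjustment 1844 genes had a p under 0.05. In all 81 called genes every runner lay outside the range of the controls. The same separation without regard to the test was found in 5.71% of genes with runners higher and 5.77% with runners lower, and the median difference over all genes was 0.01. A positive difference was found in 51.5% of all genes. Counts of called, separate, positive or negative members in the lists that follow are to be set beside these shares. Genes that rose and had reads in every control (20 genes) differed 1.71-fold to 23.5-fold in normalised reads, with a median of 2.67-fold. Genes that fell differed 1.84-fold to 14.4-fold, with a median of 3.39-fold. Of the 30 that rose, 10 had no read in at least 1 control, while none of the 51 that fell was undetected in a control. All controls of 10 genes that rose lay under the filter on low values (Apod, Col1a2, Ddr2, Fstl1, Mmp14, Mmp2, Pgf, Serpinf1, Slc27a3 and Tnc). These 10 entered only through the 4 runners and so had to be separate and higher, and their calls are given as descriptions. The reverse held for Lrrc45 and a predicted gene among those that fell. Without the 33 genes that passed through the runners alone and the 24 that passed through the controls alone, 20 genes rose and 49 fell among 10567, and 5.43% were separate with runners higher.

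The count rested on single libraries. Without runner Y1ex 46 genes passed, without Y2ex 0 (1269 at an unadjusted p under 0.05, limma), without Y3ex 36 and without Y4ex 2. Without control Yc4 185 passed, without Yc5 2, without Yc7 1 and without Yc8 14. When Y3ex and Yc4 were both left out, an alternative chosen after seeing the data, 578 genes passed, 311 higher (2.93%) and 267 lower (2.51%), and all 81 were among them. The voom test on recovered reads called 13 genes, which were all among the 81: Tmem55b, Ankrd23, Ciart, Taf1d, Ccnl1, Alpl, Rsrp1 and Slc20a1 and a predicted gene lower, and Idh2, Rrm1, Ldhb and Gbp10 higher.

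**Figure D1:**
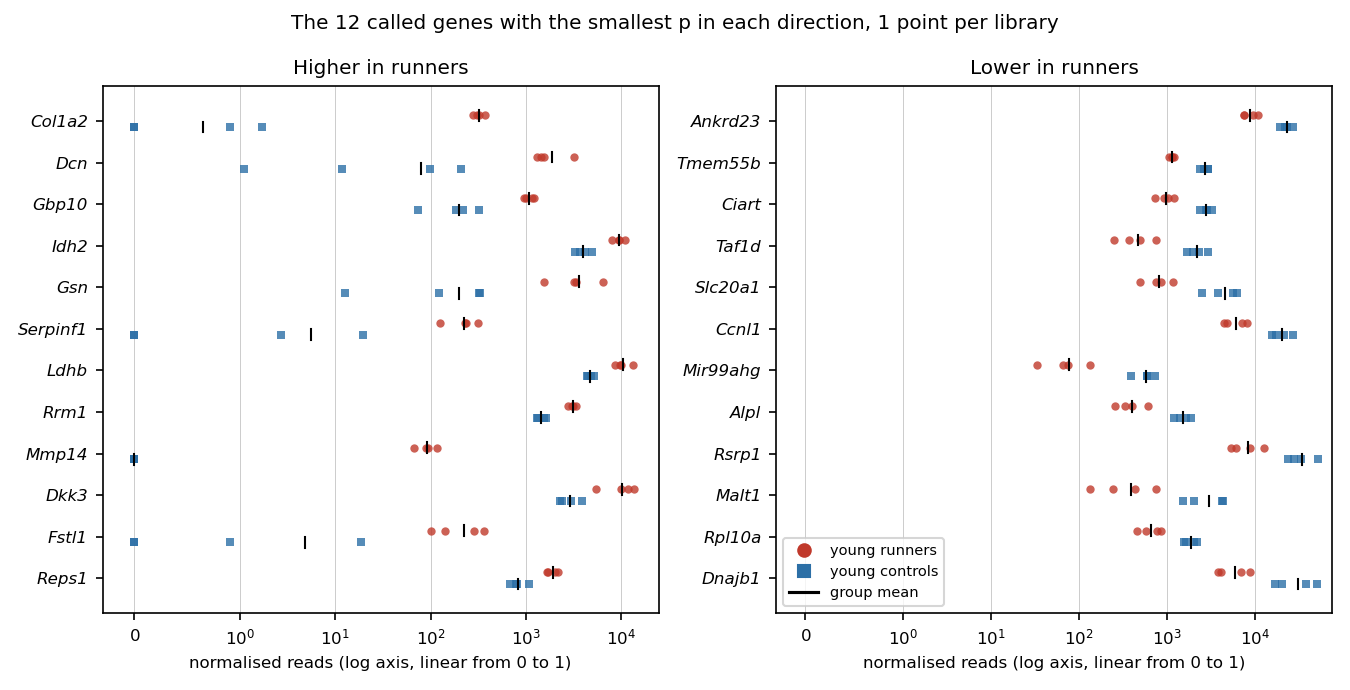
Normalised reads (horizontal axis, logarithmic above 1) of the 12 genes with the smallest p in each direction, with 1 point per library, runners as red circles and controls as blue squares, and the group mean as a black bar. In each of the 24 genes shown the 4 runners lie to one side of the 4 controls. Col1a2, Serpinf1 and Fstl1 have controls at 0, and Mmp14 has all 4 controls at 0. Col1a2, Serpinf1, Fstl1 and Mmp14 entered only through the runners, so the filter fixed their separation.

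Promoter sequences are shown for 3 called genes, because each carries the letters of an element that the lists they belong to, or a stress response, are known for. Promoters from RefSeq (GRCm38.p6), 250 bases upstream of the start, were found for 60 of the 72 called genes that have a name. They were searched on both strands for the heat shock element (TTCNNGAANNTTC or GAANNTTCNNGAA), the C/EBP-ATF element of the integrated stress response (TGATGNAA) and the ER stress element (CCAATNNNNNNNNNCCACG), and, chosen after the called genes were seen, for the E-box CACGTG, which the clock factors CLOCK and BMAL1 bind. Capitals mark the E-box in Ciart and Bhlhe41 and the C/EBP-ATF element in Serpinf1. Each is written 5′ to 3′ on the strand of its gene: Ciart at chr3:95882229-95882478 (minus strand), Bhlhe41 at chr6:145865421-145865670 (minus strand) and Serpinf1 at chr11:75422624-75422873 (minus strand).
Ciart: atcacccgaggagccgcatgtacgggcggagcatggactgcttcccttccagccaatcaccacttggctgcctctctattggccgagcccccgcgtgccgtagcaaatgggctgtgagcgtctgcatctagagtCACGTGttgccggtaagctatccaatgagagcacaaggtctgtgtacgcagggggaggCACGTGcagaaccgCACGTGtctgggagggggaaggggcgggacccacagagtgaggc
Bhlhe41: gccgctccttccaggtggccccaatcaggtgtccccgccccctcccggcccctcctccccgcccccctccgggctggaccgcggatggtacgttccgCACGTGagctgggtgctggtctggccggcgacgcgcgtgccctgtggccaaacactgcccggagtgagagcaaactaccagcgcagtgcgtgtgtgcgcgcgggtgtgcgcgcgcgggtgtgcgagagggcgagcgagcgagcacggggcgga
Serpinf1: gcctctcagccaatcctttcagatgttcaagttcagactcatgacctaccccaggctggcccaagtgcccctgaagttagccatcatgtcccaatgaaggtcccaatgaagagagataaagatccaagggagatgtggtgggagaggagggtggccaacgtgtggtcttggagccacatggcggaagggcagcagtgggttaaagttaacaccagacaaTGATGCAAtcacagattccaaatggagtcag

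The E-box was present in 5 of the 36 promoters of genes that fell (Ciart, Bhlhe41, Slc20a1, Surf2 and Trpm7) and in 0 of the 24 of genes that rose, against 6.86% of 27025 genes. Ciart held 3 copies, 116, 58 and 44 bases before the start, and Bhlhe41 held 1, 153 bases before it. The heat shock element was present in none of the 60 promoters (0.51% of all genes), Dnajb1 included, and the ER stress element in none (0.13% of all genes). Serpinf1 alone held the C/EBP-ATF element (3.91% of all genes). These matches are descriptions of the letters in this window.

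Matrix and connective tissue genes held the largest differences among the genes that rose. Of 28 proteoglycans and matrix glycoproteins tested, 2 had entered only through the runners (Fbln2 and Tnc). Of the other 26, 4 rose (Dcn, Sparc, Ltbp4 and Cilp) and 0 fell, against 0.189% of all genes that rose when such genes are left out; 8 had separate groups with runners higher and 0 with runners lower, and the median difference was 0.71 against 0.01 over all genes. Of 16 collagen chains, 3 had entered only through the runners (Col1a1, Col1a2 and Col20a1), and of the other 13, 1 rose (Col4a1), with a median of 0.36 in place of 0.66 for all 16. Of 31 matrix proteases, crosslinkers and inhibitors, the 3 called (Serpinf1, Mmp14 and Mmp2) had all entered only through the runners; of the other 28, 0 were called (limma), 7 were separate with runners higher, and the median was 0.22. At 22 months the medians of the 3 whole lists were 0.33, 0.68 and 0.18.

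Serpinf1 encodes PEDF, a secreted serpin that restrains vessel growth. It had 317, 229, 236 and 126 normalised reads in runners and 0, 2.7, 0 and 19.3 in controls, a difference of 1.72 ± 0.25 (SE; adjusted p = 0.0205, limma). Its promoter is the one with the C/EBP-ATF element, 31 bases before the RefSeq start. In GENCODE the gene starts farther upstream, so by that annotation the element lies inside the gene. Mmp14, the membrane-bound protease that activates Mmp2, had 89.1, 94.1, 117 and 66.9 reads in runners and none in any control, so it was at least 140-fold higher (floor of 3 reads over the 4 controls, counting error only). Tnc, tenascin C, a matrix protein of tendon and of tissue under strain, had 82.6, 167, 65.6 and 64.9 reads in runners and none in controls, at least 151-fold higher. Serpinf1, Mmp14 and Tnc are among the 10 genes that entered only through the runners.

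The secreted Mmp2, which cleaves basement membrane collagen, had 501, 423, 136 and 137 reads in runners and 1.1, 0, 0 and 45.3 in controls. Mmp2 had entered only through the runners, so the filter fixed its separation. Col1a2, a chain of fibrillar type I collagen, had 372, 326, 277 and 305 reads in runners and 0, 0.9, 0 and 1.7 in controls. Only 3 raw reads lay behind its controls, and the ratio was 489 with an exact 95% Poisson interval of 167 to 2370. The interval covers counting error only, since amplified reads are not independent molecules. Col1a2 had the smallest p of all genes (adjusted p = 0.0038), but it too entered only through the runners. Its partner chain Col1a1 lay just outside the threshold (adjusted p = 0.0505), with 341, 285, 64.4 and 303 reads in runners and 1.1, 0.9, 13.9 and 28.5 in controls. In both type I chains every runner lay above controls that were near 0, with Y3ex the lowest runner. Col1a1 too had entered only through the runners, so this separation was fixed by the filter.

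Dcn, decorin, a proteoglycan that coats collagen fibrils, had 3207, 1458, 1538 and 1306 reads in runners and 1.1, 209, 11.7 and 98.1 in controls. Gsn, gelsolin, which severs actin filaments and is abundant in fibroblasts, had 6529, 3381, 1537 and 3201 in runners and 12.7, 327, 123 and 325 in controls. Cilp, a matrix protein of cartilage and tendon that restrains TGF-beta, had 1987, 2102, 2122 and 240 in runners and 111, 65.4, 126 and 25.2 in controls. The runners of Dcn and Gsn were led by Y1ex, while in Cilp runner Y4ex lay far below the other runners and close to the controls.

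Sparc, a collagen-binding protein, was well detected without running: 2728, 1355, 2009 and 1979 reads in runners and 646, 572, 779 and 964 in controls, 2.73-fold. Ltbp4, which stores latent TGF-beta in the matrix, had 624, 369, 804 and 503 in runners and 2.1, 109, 0 and 138 in controls. Col4a1, the basement membrane collagen of vessels and fibres, had 2954, 1100, 684 and 1394 in runners and 25.4, 94.5, 199 and 322 in controls; Col4a2 lies head to head with it and shares overlapping exons in the annotation. Ddr2, a receptor kinase for collagen, had 464, 154, 223 and 183 in runners and 5.3, 23.6, 37.2 and 24.3 in controls. Sparc thus differed by far the least of these genes in fold. All of them had separate groups, but Ddr2 had entered only through the runners, so the filter fixed its separation.

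Fstl1, Dkk3 and Apod encode secreted proteins. Fstl1, a follistatin-like glycoprotein, had 287, 142, 363 and 101 reads in runners and 0, 0.9, 0 and 18.4 in controls. Dkk3, a secreted protein of the dickkopf family, had 5413, 13528, 11839 and 9910 in runners and 3900.2, 2275, 3009 and 2403 in controls, 3.51-fold. Apod, the lipid carrier apolipoprotein D, had 378, 193, 110.1 and 184 in runners and 0, 0, 1.5 and 35.2 in controls. Among these Dkk3 alone was well detected in every control, and its lowest runner was Y1ex, the runner that was highest for Dcn and Gsn. Fstl1 and Apod had entered only through the runners, so the filter fixed their separation.

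Markers of fibro-adipogenic progenitors moved with these genes. Of 16 markers 8 were tested and 4 rose (Col1a2, Dcn, Gsn and Serpinf1, of which Col1a2, Dcn and Serpinf1 are also in the matrix lists), and 7 had separate groups with runners higher. Col1a1, Col1a2 and Serpinf1 had entered only through the runners, and of the other 5 markers 2 rose and 4 were separate. Their summed level was 7522.5 to 16529 normalised reads in runners and 1430.1 to 2696 in controls, and Mfap5 and Clec3b had no read in any control. Tenocyte markers summed to 1695 to 5645 in runners and 1033 to 2440.4 in controls, with Tnmd, Comp and Kera at 0 in all controls, and 1 of 3 tested (Cilp) rose. Markers at 0 in all controls are named where any runner had a read, and none of them passed the filter on low values. Markers at 0 in all runners were not sought, so the naming is one-sided. The part of these cells in the matrix result was not tested. In bulk RNA, fewer cells of a type and less RNA per cell cannot be told apart.

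**Figure D2:**
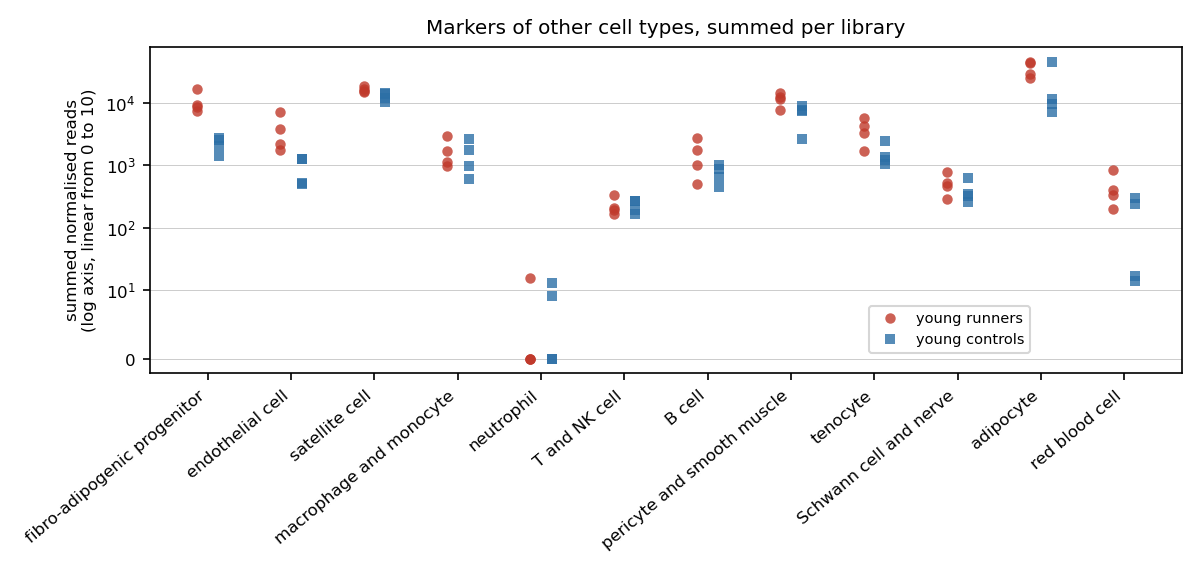
Summed normalised reads of markers of 12 other cell types (vertical axis, logarithmic above 10), with 1 point per library, runners as red circles and controls as blue squares. Runners and controls are separate for fibro-adipogenic progenitors (lowest runner 7522.5, highest control 2696), endothelial cells (1736 against 1280.5) and satellite cells (15240 against 14660), and overlap for macrophages and neutrophils. In the satellite cell sum Itga7 alone averaged 7862 in runners and 5687 in controls. Of 6 satellite cell markers tested 5 had a positive difference, while Myf5 was lower in runners (mean 43.3 against 121). Pax7 took at most 1.63e-05% of reads in any library.

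Among vessel and adhesion genes, few passed the test. Pgf, placental growth factor, a ligand of the VEGF receptor Flt1, rose: it had 694, 182, 177 and 124 reads in runners and 0, 0, 11.7 and 11.7 in controls. Icam1, which holds leukocytes on endothelium, had 2218, 837, 644 and 1121 in runners and 186, 297, 78.1 and 266 in controls, 5.83-fold. Among 28 angiogenic signalling genes Pgf, which entered only through the runners, was the only one called. Separate groups were found in 4 with runners higher, Pgf included, and 1 with runners lower (5.71% and 5.77% of all genes), and the median was 0.35. The separate group in the other direction was Vegfa, the main growth factor of capillaries, with 22882, 21247, 19506 and 27226 reads in runners and 30727, 44573, 52511 and 44023 in controls (adjusted p = 0.06). Y1ex was the highest runner in Pgf and Icam1, while Vegfa was lower in every runner.

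S1pr1, a receptor that steadies endothelium, had 1041, 411, 371 and 498 reads in runners and 2.1, 133, 70.1 and 157 in controls (adjusted p = 0.0619). Rgs5, a pericyte gene, had 2724, 557, 620 and 1088 in runners and 5.3, 106, 22.6 and 378 in controls (adjusted p = 0.0635). Neither passed the threshold, although their groups were separate. Of 15 endothelial markers 11 were tested, 0 were called and 4 were separate, with a median difference of 0.98. The 15 summed to 1736 to 7288 reads in runners and 511 to 1280.5 in controls. Erg was at 0 in all controls but did not pass the filter, and markers at 0 in all runners were not sought. Pericyte and smooth muscle markers summed to 7601 to 14330 in runners and 2624 to 8800 in controls, which overlap. Most of that sum was Abcc9 alone, with 8452, 11746, 6384 and 12707 reads in runners and 2556, 7036, 8719 and 7175 in controls. The overlap of the sum thus follows Abcc9 and not Rgs5, which was separate. The part of these cells in the vessel genes was not tested.

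Among immune and interferon genes a single one was called. Gbp10, an interferon-inducible guanylate-binding protein, rose from 74.2, 219.9, 322 and 187 reads in controls to 1162, 1223, 957 and 1013 in runners, 5.42-fold, and it was the only one of 31 interferon-inducible genes called. Its family has near-identical copies on chromosome 5, so reads could be split among them. Of 17 chemokines and cytokines 0 were called (limma) and 3 were separate with runners higher, 2 of which entered only through the runners. The macrophage markers summed to 968 to 2954 in runners and 614 to 2664 in controls, and neutrophil markers to at most 15.7 reads in any library. Cd68 alone averaged 1407 in runners and 1123 in controls, with overlapping groups. The other 2 macrophage markers tested went opposite ways. Lyz2 averaged 108 in runners and 18.3 in controls, with overlapping groups. Mrc1 was lower in every runner (mean 68.0 against 294, adjusted p = 0.0962, limma).

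**Figure D3:**
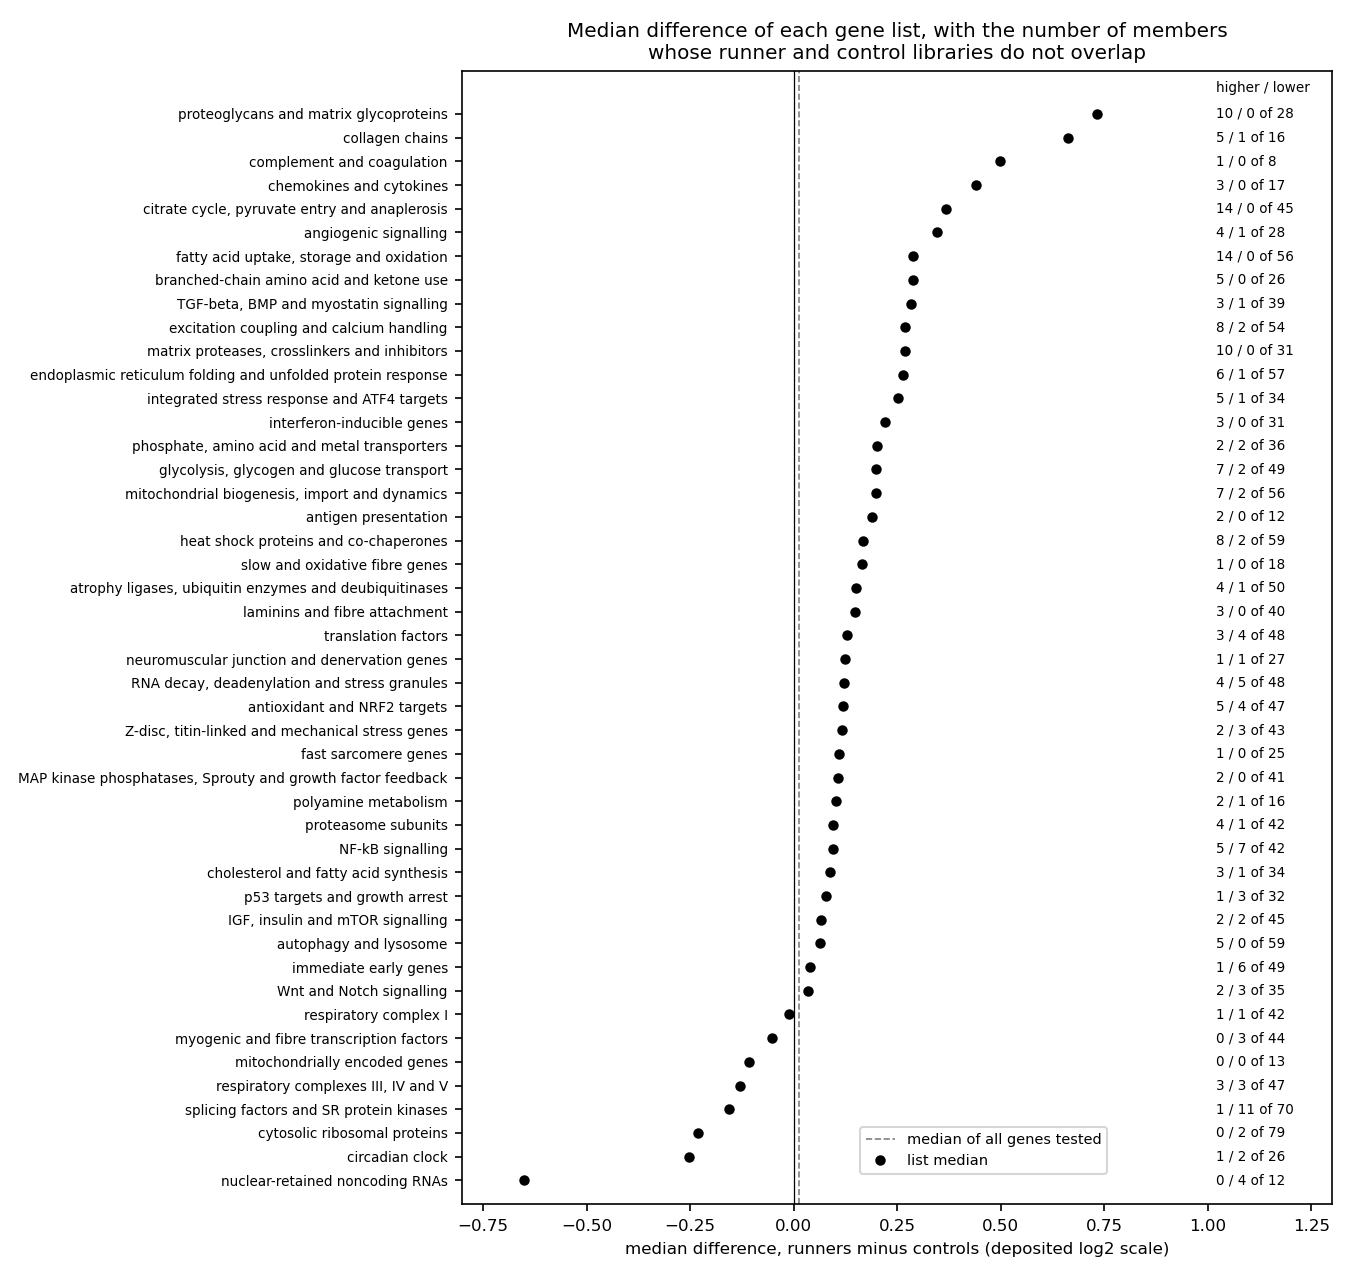
Median difference between runners and controls on the deposited log2 scale (horizontal axis) for 46 gene lists, with the number of members whose 4 runners and 4 controls do not overlap, higher or lower in runners, at the right. Proteoglycans and collagen chains lie at the top (0.73 and 0.66). Without the members that entered only through the runners, which the medians and counts shown include, these medians are 0.71 and 0.36. Citrate cycle and fatty acid genes have 14 separate members each and none in the other direction. The list of nuclear noncoding RNAs, which also holds the protein-coding Cdkn1b, lies lowest (-0.65).

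Oxidative enzymes had mostly positive differences of small size. Of 45 genes of the citrate cycle and its entry points, 39 had a positive difference, 14 were separate with runners higher and 0 with runners lower (5.71% and 5.77% of all genes), and 1 was called. The median was 0.37 at 4 months and 0.12 at 22 months. Idh2, the mitochondrial isocitrate dehydrogenase that makes NADPH, had 8099, 10906, 9508 and 9533 reads in runners and 4897, 4183, 3259 and 3743 in controls (difference 1.21 ± 0.16, adjusted p = 0.019). Sdha, the catalytic subunit of succinate dehydrogenase, had 71818, 76125, 64906 and 70289 in runners and 36160, 55590, 39965 and 43989 in controls (adjusted p = 0.0711). In both enzymes all runners lay above the controls, but only Idh2 passed.

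Per kilobase of exon, Idh2 reached 3675 normalised reads in runners and 1554 in controls, far under Sdha (17156 and 10646). Ldhb, the lactate dehydrogenase subunit of heart and oxidative fibres, rose 2.21-fold, with 10046, 13413, 8600.3 and 9862 reads in runners and 4819, 4442, 4467 and 5206 in controls. It was the only gene called among 49 of glycolysis and glycogen and among 18 slow and oxidative fibre genes. Pfkfb1, which sets the level of the glycolytic activator fructose 2,6-bisphosphate, was lower in every runner, with 2263, 1788, 1716 and 2405 reads against 3840, 2964, 4444 and 3464 (adjusted p = 0.0668). Ldhb was thus higher and Pfkfb1 lower in every runner, and Ldhb alone passed.

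Genes of fat and branched-chain amino acid use also had mostly small positive differences. Of 56 genes of fatty acid uptake, storage and oxidation, 43 had a positive difference, 14 were separate with runners higher, 0 with runners lower and 0 passed; the median was 0.29 at 4 months and -0.0033 at 22 months. Without Y3ex and Yc4, 8 of the 56 rose and 2 fell, beside 2.93% and 2.51% of all genes in that fit. Acad9, an acyl-CoA dehydrogenase that also helps to assemble complex I, had 2684, 2131, 2361 and 2264 reads in runners and 990.2, 1387, 1364 and 1491 in controls (adjusted p = 0.0619). Slc27a3, of the fatty acid transport protein family but not on the list, had 119, 84, 125 and 139.6 reads in runners and 0, 21.8, 3.6 and 3.4 in controls. It lay just inside the threshold (adjusted p = 0.0482, limma). Slc27a3 had entered only through the runners, so the filter fixed its separation. Of 26 genes of branched-chain amino acid and ketone use, 5 were separate with runners higher and 0 with runners lower, with a median of 0.29. Bckdha, a subunit of the complex that commits these amino acids to breakdown, had 1637, 1610.0, 1666 and 1670.3 reads in runners and 999, 1133, 944 and 1155 in controls (adjusted p = 0.0962).

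Genes of the secretory pathway rose in part. Pdia3, a disulfide isomerase that folds glycoproteins, had 3710.0, 3335, 2918 and 3488 reads in runners and 1937, 1822, 1471 and 2083 in controls, 1.84-fold. Copb2, a coat protein of vesicles between Golgi and endoplasmic reticulum, had 4216, 4236, 4699 and 3773 in runners and 2014, 2706, 2395 and 1922 in controls. Among 57 endoplasmic reticulum folding genes Pdia3 was the only one called (0.282% of all genes rose). With runners higher 6 were separate, and with runners lower 1 (5.71% and 5.77% of all genes), and the median was 0.26 against 0.01 for all genes. Rpn1, a subunit of the glycosylating complex, was next, with 4029, 4456, 4956 and 4789 reads in runners and 2548, 2929, 2714 and 3063 in controls (adjusted p = 0.0617).

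Other genes that rose have no group here. Rrm1, the large subunit of ribonucleotide reductase, which makes the building blocks of DNA, had 2806, 3367, 3071 and 3159 reads in runners and 1556, 1626, 1299.8 and 1333 in controls. Reps1, an endocytic adaptor, had 2046, 1688, 2176 and 1722 in runners and 1068, 679.8, 809 and 786 in controls. Pdlim1, which binds alpha-actinin, had 978, 747, 671 and 764 in runners and 228, 339.9, 164 and 293 in controls, and was the gene that rose among 43 of the Z-disc and mechanical stress. Amy1, amylase, rose by 1.14, and has a near-identical family copy to which reads could be shared; Ide, which degrades insulin, rose by 0.93, and Plekhm1, an adaptor for fusion with lysosomes, by 0.96.

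In the lists of nuclear noncoding RNAs and of splicing factors, 1 and 2 members fell. Malat1, a long RNA of nuclear speckles, had 14636, 7781, 3624 and 8241 reads in runners and 24616, 47616, 48829 and 26069 in controls. Of 12 genes tested on the list of nuclear noncoding RNAs 11 had a negative difference. Groups were separate with runners lower in 4 and with runners higher in 0, and 1 fell (0.48% of all genes fell). The median was -0.65 at 4 months and -0.77 at 22 months. The list also holds Cdkn1b, which encodes a protein, so its counts and median may not be those of noncoding RNAs alone. Gas5, which hosts small nucleolar RNAs in its introns, had 873, 344, 417 and 682 in runners and 2282, 1659, 1857 and 1113 in controls (adjusted p = 0.056). Every runner lay below every control in both RNAs, with Y1ex the runner nearest to the controls.

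Of 70 splicing factors and their kinases, 2 fell (0.48% of all genes fell) and 0 rose. With runners lower 11 were separate, and with runners higher 1 (5.77% and 5.71% of all genes), and the median was -0.16. Ccnl1, cyclin L1, which associates with the splicing machinery, had 8076, 4399, 4805 and 7007 reads in runners and 15405, 21419, 26874 and 17155 in controls, 3.33-fold lower. Rsrp1, an arginine and serine-rich protein, had 12534, 6061, 5322 and 8697 in runners and 23413, 27680, 51366 and 33416 in controls, 4.17-fold lower. Luc7l2, a component of the U1 particle, had 898, 680.0, 438 and 879 in runners and 1505, 2185, 2705 and 1408 in controls (adjusted p = 0.0573). In the 3 genes Y3ex was the lowest or next to lowest runner and Yc7 the highest control. Without Y3ex and Yc4, 8 of the 70 fell and 1 rose, beside 2.51% and 2.93% of all genes in that fit.

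Several of the genes that fell carry or overlap small RNAs. Taf1d, a subunit of the factor that recruits RNA polymerase I, overlaps many small RNA genes in the annotation; it had 737, 368, 248 and 489 reads in runners and 1977, 2266, 2873 and 1652 in controls. Snora28, a small nucleolar RNA, lies within Eif5, and reads of the pair cannot be told apart; it had 110.1, 96.9, 19.9 and 124 in runners and 395, 1024, 1328 and 642 in controls. Mir99ahg, the long host transcript of a microRNA cluster, had 32.8, 65.5, 75 and 132 in runners and 733, 589, 590 and 382 in controls, 7.52-fold lower. Of the 48 genes that fell and matched the annotation, 9 were not protein-coding, against 614 of 10403 genes tested and 0 of the 30 that rose.

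Several stress, inflammatory and feedback transcripts fell. Of 42 genes of NF-kB signalling 3 fell (0.48% of all genes fell) and 0 rose. With runners lower 7 were separate, and with runners higher 5 (5.77% and 5.71% of all genes). Tnfrsf1b had entered only through the runners, and without it 4 were separate with runners higher. The median was 0.10, so the list had no common direction, and without Yc4 its median changed sign. Malt1, the paracaspase that links antigen and stress receptors to NF-kB, had 243, 428, 131 and 736 reads in runners and 2016, 4127, 4271 and 1509.9 in controls. Nfkbiz, an inducible partner of NF-kB, had 551, 364, 626 and 892 in runners and 1354, 4318, 8246 and 4936 in controls. Ripk1, the kinase at the fork between survival and cell death, had 666, 168, 137 and 659 in runners and 1979, 2194, 2456 and 1125 in controls. The 3 differed 7.75-fold, 7.75-fold and 4.76-fold.

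Socs3, the feedback inhibitor of cytokine receptors, had 12087, 13005, 29186 and 22003 reads in runners and 40757, 50945, 69205 and 59406 in controls, 2.89-fold lower. Dnajb1, the co-chaperone of Hsp70, had 3787, 4043, 6954 and 8804 in runners and 20226, 16549, 37295 and 49482 in controls, 5.24-fold lower (adjusted p = 0.0357). It was the only one of 59 heat shock proteins and co-chaperones called, and the median of that list was 0.17, with 47 of 59 positive. Hsp90ab1, the constitutive cytosolic Hsp90, had 52817, 53334, 58958 and 47205 in runners and 35710, 38288, 30399 and 30211 in controls (adjusted p = 0.066). Bag3, a co-chaperone that clears damaged Z-disc proteins, had 27436, 30806, 24115 and 30221 in runners and 20911, 18000.2, 17093 and 14521 in controls (adjusted p = 0.0711). The list thus held 8 members with all runners above the controls and 2 with all runners below (5.71% and 5.77% of all genes).

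Ddit3, the stress transcription factor CHOP, had 3451, 1371, 1259 and 1611 reads in runners and 5833, 4253, 9139 and 7477 in controls. Among 34 genes of the integrated stress response it was the only one called, and 5 were separate with runners higher, among them the transfer RNA charging enzyme Mars (6512, 6726, 7032 and 6330.3 in runners; 3444, 4845, 3664 and 4013 in controls; adjusted p = 0.056). Sat1, which acetylates polyamines for export and breakdown, had the largest negative difference (-2.52 ± 0.42), with 9702, 2454, 1848 and 5820.1 in runners and 21194, 24523, 27163 and 24033 in controls. Of 49 immediate early genes 0 were called, 6 were separate with runners lower and 1 with runners higher (5.77% and 5.71% of all genes). The gene separate with runners higher was Zfp36l2, which had entered only through the runners. Gadd45b, a stress gene, had 11374, 7846, 9904 and 8614 in runners and 19112, 13046, 21372 and 20072 in controls (adjusted p = 0.056), and Gadd45g 28625, 9865, 11097 and 24652 against 60410, 37844, 55697 and 51203 (adjusted p = 0.0611). Ddit3 was thus lower and Mars higher in every runner; the 2 genes lie on opposite strands and their exons overlap at their ends, where unstranded reads cannot be told apart.

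Khnyn, an RNA endonuclease of antiviral defence, had 186, 201, 1.2 and 281 reads in runners and 753, 1906, 2307 and 899 in controls. It was the called gene among 48 of RNA decay. Of these 5 were separate with runners lower and 4 with runners higher (5.77% and 5.71% of all genes). Zfp36l2 had entered only through the runners, and without it 3 were separate with runners higher. Zc3hav1, the antiviral RNA-binding protein ZAP with which the Khnyn protein is known to act, had 493, 293, 275 and 323 in runners and 833, 1019, 1001 and 594 in controls (adjusted p = 0.0619). Y3ex was close to undetected for Khnyn, and the other runners were still below every control.

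The clock genes called were Ciart and Bhlhe41, and both fell. Their promoters were printed because they were called and hold the E-box, which was chosen after the called genes were seen. The E-box was not listed for clock genes that were not called, so a link between it and the fall was not tested. Ciart, a repressor of CLOCK and BMAL1, had 724, 1201, 1025 and 925 reads in runners and 2805, 2325, 3218 and 2786 in controls, 2.87-fold lower (difference -1.36 ± 0.18, adjusted p = 0.019). Bhlhe41, another repressor of the same pair, had 1847, 1251, 1088 and 1746 in runners and 2786, 7319, 7760.2 and 3975 in controls. Of 26 clock genes 2 fell (0.48% of all genes fell), 0 rose, 16 had a negative difference and the median was -0.25. Nr1d1, a nuclear receptor that represses the clock activator Bmal1, had 13941, 14803, 11105 and 15102 in runners and 12004, 9628, 8632 and 8820 in controls, which overlap (adjusted p = 0.175). The clock list thus did not move as a block, and the time of day of collection, on which these genes are known to depend, is not given.

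Transcription and growth regulators fell as single genes. Id2, which blocks basic helix-loop-helix factors and is a target of BMP signals, had 1627, 1346, 1692 and 708 reads in runners and 4163, 3215, 5321 and 6754 in controls. In the list of TGF-beta, BMP and myostatin signalling (39 tested) Id2 fell and Fstl1 and Ltbp4 rose, beside 0.48% and 0.282% of all genes. Fstl1 had entered only through the runners. Among 44 myogenic and fibre transcription factors Id2 was the only one called. Myod1, the master factor of the muscle lineage, had 41698, 40983, 30149 and 33064 in runners and 34156, 12324, 6322 and 4617 in controls, where Yc4 lies within the runners and the other controls far below (adjusted p = 0.116).

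Ankrd23, a titin-bound stress sensor of the muscle ankyrin repeat family, had 9493, 7515, 7349 and 10753 reads in runners and 23139, 21662, 26953 and 18823 in controls, 2.58-fold lower. Its neighbour on chromosome 1, Ankrd39, which overlaps the same predicted gene as Ankrd23, had 253, 248, 246 and 228 in runners and 481, 611, 817 and 717 in controls. Myl6, the light chain of non-muscle myosin, had 2436, 1144, 1345 and 1729 in runners and 5092, 4334, 4207 and 3462 in controls. Among 43 Z-disc and mechanical stress genes Ankrd23 fell and Pdlim1 rose, which are the 2 called. Myosin heavy chains did not pass. Myh1, the IIX heavy chain of fast fibres, had 240221, 309927, 164705 and 126084 reads in runners and 28320.0, 104711, 84149 and 79386 in controls (adjusted p = 0.0941, limma). Myh2, the heavy chain of fast oxidative fibres, had 1733, 22015, 11151 and 14679 in runners and 22.3, 5484.5, 1523 and 1663 in controls, which overlap (adjusted p = 0.199, limma).

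Calcium handling genes were not called (0 of 54). Of these 8 were separate with runners higher and 2 with runners lower (5.71% and 5.77% of all genes), and the median was 0.27. Micu2, a gatekeeper of the mitochondrial calcium channel, had 1721, 2638, 2685 and 1977 reads in runners and 826, 1167, 909 and 1341 in controls (adjusted p = 0.0611). Calm2, a calmodulin gene, had 7982, 6516, 7438 and 8937 in runners and 14296, 9095, 11004 and 12806 in controls (adjusted p = 0.13). Micu2 was thus higher and the calmodulin gene lower in every runner, without passing the threshold.

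Among 36 phosphate, amino acid and metal transporters 27 had a positive difference, with a median of 0.20, and 1 was called. Slc20a1, a sodium-dependent phosphate carrier and the one called, had 1147, 746, 485 and 851 reads in runners and 2474, 6176, 5618 and 3781 in controls, 5.59-fold lower; a gene on the other strand that overlaps it was also called lower, and reads of the pair cannot be told apart. Alpl, the tissue-nonspecific alkaline phosphatase that frees phosphate, had 253, 328, 607 and 401 in runners and 1179, 1399, 1838 and 1647 in controls, 3.82-fold lower. Tmem55b, a lysosomal phosphoinositide phosphatase, had 1206, 1138, 1142 and 1049 in runners and 2608, 2879.9, 2861 and 2379 in controls (adjusted p = 0.019). Trpm7, a magnesium channel fused to a kinase, had 1303, 1394, 963 and 2078 in runners and 3401, 7384, 5336 and 3105 in controls.

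The other genes that fell, with the drop on the log2 scale or as a fold in normalised reads, were Mzt1 (2.02-fold), Cetn3 (by 1.16) and Lrrc45 (by 1.40), which encode proteins of the centrosome, Syne2 (by 0.97), a giant protein of the nuclear envelope, and Ube2c (by 1.95), a ubiquitin-conjugating enzyme of mitosis whose gene overlaps Tnnc2, the abundant fast troponin C, so that its reads cannot be assigned safely. Pex2 (by 0.94) imports peroxisomal enzymes, Metap1d (by 1.21) trims mitochondrial proteins and Aldh9a1 (by 1.73) acts in carnitine synthesis. Araf (by 0.92) is a kinase of the MAP kinase path and Nrep (by 1.22) is induced in regenerating tissue. The rest were Schip1 (by 1.05), Surf2 (by 1.15), Zfp931 (by 1.68), Mlf1 (by 0.89), Gucd1 (by 0.86), the antisense transcript Atcayos (2.06-fold) and the noncoding Nctc1 (by 1.19). Surf2 overlaps Surf1 and Surf4, and Atcayos overlaps Atcay and Nmrk2.

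Genes of short transcripts were slightly lower as a class. Rpl10a, a protein of the large ribosomal subunit, fell, with 764, 448, 856 and 572 reads in runners and 1619, 2016, 2186 and 1546 in controls, 2.79-fold; it has many processed copies in the genome. Of 79 ribosomal protein genes 69 had a negative difference with a median of -0.23, but 1 was called and 2 were separate, fewer than the 5.77% of all genes. Respiratory genes split by member: of 47 genes of complexes III, IV and V, 3 were separate with runners higher and 3 with runners lower, and the median was -0.13. Cox7b, a small subunit of cytochrome oxidase, had 15933, 8830.4, 13773 and 11221 in runners and 35093, 18919, 24052 and 32194 in controls (adjusted p = 0.061). Atp5a1, a large subunit of the ATP synthase, had 170316, 184461, 187380.1 and 151210.3 in runners and 135571, 130223, 102863 and 116177 in controls (adjusted p = 0.147).

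Exon length moved with these differences. Over 10403 genes with a length the difference had a Spearman correlation of 0.12 with exon length (genes share libraries and are not independent replicates). The median difference in 5 equal groups of genes by length was -0.09 in the shortest (57 to 2406 bases), 0.02, 0.05 and 0.08 in the next 3 and 0.05 in the longest. The trend differed as much within groups: in the longest genes the median deviation from the controls' mean was -0.37 in Yc4 and -0.17 in Y3ex but 0.21 in Yc5 and 0.18 in Y4ex. With the length trend removed from each library, the ribosomal median was -0.19, the median of complexes III, IV and V -0.04 and that of complex I 0.04 in place of -0.01, while the citrate cycle kept 0.33 and the proteoglycans 0.70. All 30 genes that rose stayed positive, and of the 48 that fell and had a length 0 were positive, with 154 genes called. The called genes were chosen on these same values. Their smallest differences, 0.775 (rose) and -0.856 (fell), were far beyond the medians by length, so a change of sign was hardly possible.

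**Figure D4:**
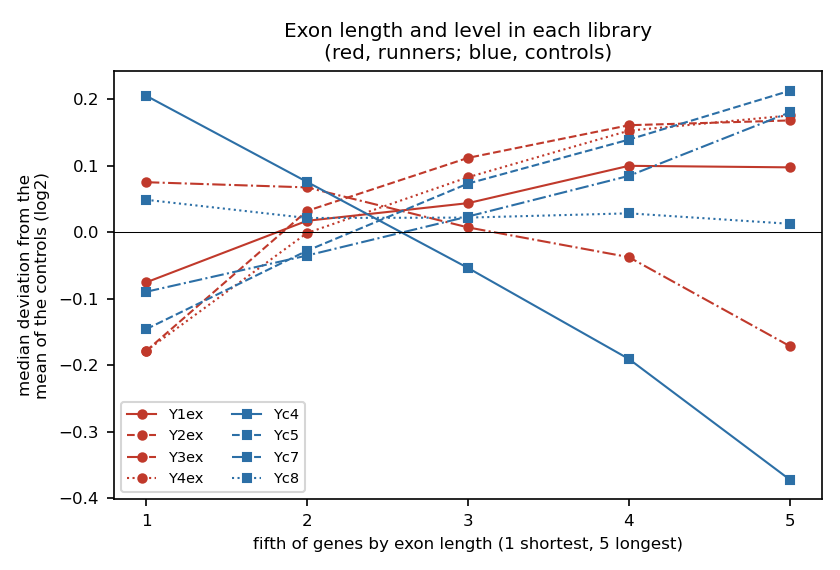
Median deviation of each library from the mean of the controls (vertical axis, deposited log2 scale) in 5 equal groups of genes from the shortest to the longest exon length (horizontal axis), 1 line per library, runners in red and controls in blue. Control Yc4 falls to -0.37 and runner Y3ex to -0.17 in the longest genes, while Yc5, Yc7, Y1ex, Y2ex and Y4ex rise.

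Among the libraries, the called genes did not share one extreme runner. For the 30 genes that rose, Y3ex was the runner nearest to the controls in 12 and Y1ex the farthest from them in 14. For the 51 that fell, Y1ex was nearest in 22 and Y3ex farthest in 26. Y2ex was nearest in 5 and 1. The control nearest to the runners was Yc8 in 11 and Yc5 in 10 of the genes that rose, and Yc5 in 19 and Yc4 in 17 of those that fell.

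At 22 months the same running regime gave 12 called genes of 9379 (0.128%). The 2 ages share no library. Of the 21 genes that rose at 4 months and were tested at 22 months, 20 had a positive difference there, and of the 50 that fell 48 had a negative one, beside 6447 of 9356 genes over all. Median folds in normalised reads of these genes were 2.73 and 1.46 (rose) and 3.37 and 1.69 (fell) at 4 and 22 months. The genes were chosen on the young libraries, so these values are a description. The 22-month table also has a higher floor (7.69 against 6.73), which compresses low genes more.

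A test of the difference between the ages called 0 of 9356 genes (limma, 0% called; 585 at an unadjusted p under 0.05; voom on recovered reads 0 and 588). Leaving out Y4ex gave 1, leaving out Yc4 gave 5 and leaving out Y3ex with Yc4 gave 3. Rsrp1 was the gene called at both ages: at 22 months it had 6976 ± 2842 reads in runners and 21772 ± 2919 in controls (SD, n = 4; adjusted p = 0.0458, limma). Dnajb1 had 6632 ± 3022 and 25651 ± 10654 at 22 months (adjusted p = 0.0566) and Ddit3 1820.5 ± 1289 and 5833 ± 835 (adjusted p = 0.0888). The 3 genes had differences of -1.67, -1.91 and -1.67, close to the young values of -2.05, -2.30 and -1.75.

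Idh2 had 8692 ± 2017 reads in old runners and 8005 ± 2533 in old controls, and Rrm1 2521 ± 810 and 2338 ± 327, while Ldhb had 8316 ± 3437 and 4332 ± 1576. The age difference of Idh2 was 1.07 ± 0.28 (adjusted p = 0.547) and of Ldhb 0.22 ± 0.36 (adjusted p = 0.957). Among the called genes tested at both ages, those with the other sign at 22 months were Cilp (847 ± 558 in runners, 921 ± 304 in controls), Bhlhe41 (1576 ± 305 and 1423 ± 413) and Nrep (3450 ± 958 and 2662 ± 1236). The age differences of Cilp, Bhlhe41 and Nrep were 2.83 ± 0.66, -1.80 ± 0.39 and -1.64 ± 0.41 (SE; adjusted p = 0.547 for each). None passed, so a change of the running effect with age is not shown for any of them. Of the genes that rose at 4 months, 9 did not pass the filter at 22 months and were not tested there. Col1a2 had 63.8 ± 64.4 reads in old runners and 85.2 ± 74.4 in old controls, and Mmp14 34.8 ± 36.0 and 37.2 ± 31.5, so neither mean was higher in runners at that age. In the other 7 the mean of the old runners was the higher one, from Pgf (83.6 ± 48.1 and 79.2 ± 157.8) to Tnc (104.2 ± 128.2 and 0.3 ± 0.5).

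**Figure D5:**
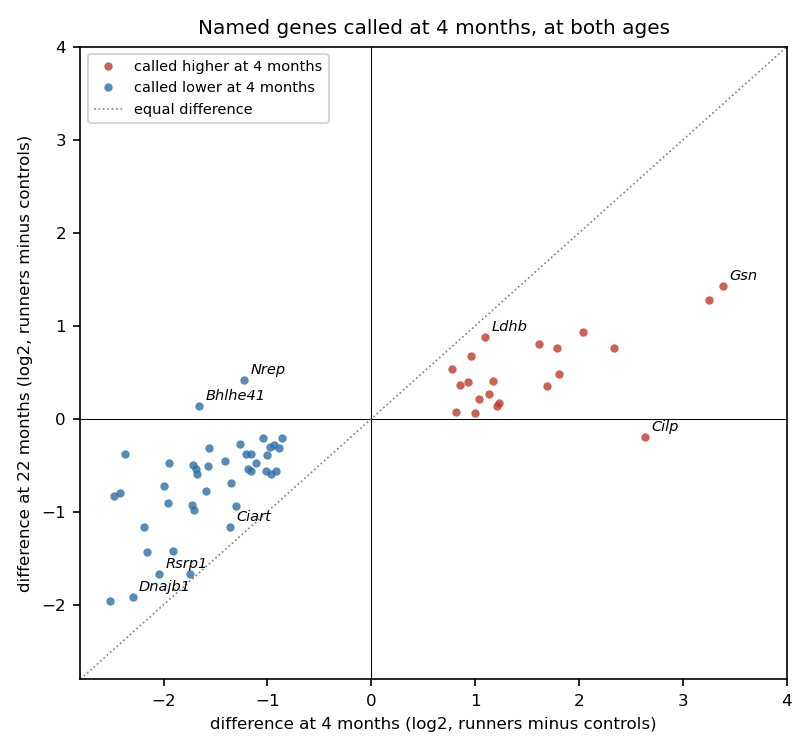
Difference between runners and controls at 4 months (horizontal axis) and 22 months (vertical axis) on the deposited log2 scale, 1 point per named gene called at 4 months and tested at both ages, red where it rose and blue where it fell. The points lie nearer to 0 at 22 months than the dotted line of equal difference, and Cilp, Bhlhe41 and Nrep lie across 0.

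Gene positions are those of GENCODE M21 on mm10, and reads were counted per gene. Idh2 lies on chromosome 7 (80094846 to 80115392), Ldhb on chromosome 6 (142490249 to 142507957), Rrm1 on chromosome 7 (102441695 to 102469771), Gbp10 on chromosome 5 (105215699 to 105239533) and Dkk3 on chromosome 7 (112116017 to 112159057). Serpinf1 lies on chromosome 11 (75409769 to 75422701), Mmp14 on chromosome 14 (54431612 to 54445364) and Tnc on chromosome 4 (63959785 to 64047015). Ankrd23 lies on chromosome 1 (36530188 to 36536883) beside Ankrd39 (36537507 to 36547445). Ciart lies on chromosome 3 (95878503 to 95882251), Bhlhe41 on chromosome 6 (145858243 to 145865558), Slc20a1 on chromosome 2 (129198764 to 129211616), Alpl on chromosome 4 (137741733 to 137796384), Taf1d on chromosome 9 (15306214 to 15316991) and Ccnl1 on chromosome 3 (65946151 to 65958249).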

How the data were processed

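Fibres of the extensor digitorum longus were profiled by RNA sequencing after low-input amplification of whole transcripts, unstranded per the labels' protocols. The authors deposited log2 values per gene (variance-stabilised; Trim Galore, STAR, featureCounts of Subread, DESeq2 and mm10 are named, without roles or versions, per the submitters' processing notes). Inverting them gave whole reads within 0.02 for 100% of values, from which depths and normalised reads were taken.

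Differences were tested with limma 3.58.1 (R 4.3.3, variance trend, Benjamini-Hochberg, called at an adjusted p of 0.05 or less) on genes at least 1 above the lowest value in at least 4 libraries. The difference between ages was tested over 16 libraries. The tests were checked on simulated data. Tables and figures used Python 3.11.15, pandas 2.3.3 and matplotlib 3.10.9. Of the symbols, 20843 (95.82%) matched GENCODE M21, and 21 had been turned into dates. Predicted genes (9 of the 81 called) are counted and not named, and a few genes are not reported here. Values per library are given for the 12 genes with the smallest p in each direction, for called members of lists and for up to 3 members per list with the smallest p. Members and lists were chosen with earlier results of these data known. Alternatives covered filters, scaling, variance models, voom, exon length and each library left out.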

Additional observations from a re-analysis of the deposited data

Results flagged for a closer look

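In 5 of 144 groups of 4 values among the 72 named genes called at 4 months, 1 library lay apart from the other 3 by Dixon's test at the 95% level; chance flags about 1 in 20 groups. Zfp931 had 133.6 normalised reads in runner Y3ex and 448.4 to 542.7 in the other runners. Lrrc45 had 0.0 in runner Y3ex and 40.6 to 49.2 in the others. Cilp had 239.9 in runner Y4ex and 1987.4 to 2121.7 in the others. Mmp2 had 45.3 in control Yc8 and 0 to 1.1 in the other controls. Mzt1 had 13398.8 in control Yc4 and 10213.1 to 10490.1 in the others. In each case the library remained on its own group's side of the comparison, which the filter fixed for Lrrc45 and Mmp2.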

How the results depend on the processing

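No named gene changed direction under the alternatives it could be run in (72 genes in most, 70 with the exon length trend removed and 62 with a filter of 2). All called genes had separate groups, so leaving out libraries could not reverse them, and other settings hardly could. Their constant direction is therefore no check of the result. The number of genes called at 4 months (81, 30 higher and 51 lower) depended on the settings. It was 24 (11 and 13) with no filter on low values, 143 (48 and 95) with median centring, 228 (81 and 147) with quantile normalisation, 47 (18 and 29) without a variance trend, 13 (4 and 9) with voom, 154 (55 and 99) with the exon length trend removed, 1394 (735 and 659) with library weights and 578 (311 and 267) without Y3ex and Yc4, the last chosen after seeing the data. Library weights were lowest for Yc4 (0.253) and Y3ex (0.295). Leaving out 1 library gave 0 to 185 genes, 0 to 75 higher and 0 to 110 lower. A filter of 2 gave 73 and robust variances 60. The difference between ages called 0 genes, but 27 (13 and 14) with library weights and 3 (0 and 3) without Y3ex and Yc4. Leaving out 1 library gave 0 to 5, 0 to 1 higher and 0 to 4 lower. The cause was not tested. Of 954 list medians under alternatives 936 moved by less than the spread between libraries and 18 by more. No paired analysis was possible because the control columns could not be tied to the numbered samples, and runner and control columns share 1 number (4), too few for a block. Low genes were limited by depth: Mmp14 and Tnc had 0 reads and Col1a2 3 reads over the 4 controls.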
